A study of Mus musculus with 36 samples.

Results

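Fatty acid oxidation and ketone body use were followed in the mouse heart through 33 named genes, of which 32 were measured. Members were read by gene symbol from the deposited array table. Where a gene had several probe sets, groups of short probes that read 1 transcript, the probe set with the highest mean over all arrays stood for it. Cpt1b, the muscle form of the carnitine palmitoyltransferase that opens the pathway, was not analysed here. The 32 genes are a small part of the 20701 genes with an Entrez ID on the array.

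Hearts of OF1 mice, an outbred stock without any engineered allele or treatment, were collected daily from E10.5 to E19.5 and from young adults of 10 weeks and old adults. The series text gives the old adults as 14 months old, the methods as 10 months. Each of the 12 stages had 3 arrays, which makes 36. The youngest stages, E10.5 and E11.5, have only arrays of mixed male and female hearts, numbered 1 to 3. Every later stage has a female, a male and a mixed array, and values are given here in that order. According to the methods a female or male array stood for 1 pup, so each sex had 1 array a stage.

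Long-chain fatty acids enter mitochondria as carnitine esters through the transferases Cpt1 and Cpt2 and the carrier Slc25a20, and are then shortened by repeated rounds of dehydrogenation, hydration, a second dehydrogenation and thiolysis. Malonyl-CoA, made at the outer mitochondrial membrane by Acacb and removed by Mlycd, inhibits Cpt1 and so sets the entry of fuel. Ketone bodies made by the liver are turned back into acetyl-CoA by Bdh1, Oxct1 and Acat1. The fetal heart relies largely on glucose and lactate, and the adult heart largely on fatty acids.

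Values are log2 levels after robust multi-array average (RMA), and a difference of 1 is a doubling. Differences between stages are from limma, with Benjamini-Hochberg adjusted p over all probe sets, and a gene was called at an adjusted p under 0.05. All values are of whole hearts, in which fewer cells of a type and less RNA per cell cannot be told apart. The extraction protocol in the labels names liver, although tissue is given as heart. Alb, the liver's albumin, had no stage mean above 4.05, and 5 of 6 liver markers had none above 5. The other, Serpina1b, a secreted protease inhibitor, reached 6.07 in old adults, and it rose by 2.28 from E19.5 to the young adult (adjusted p = 9.7e-08) and by 1.22 from young to old adult (adjusted p = 0.0064). Its part in the results was not tested. The mean level of 8 cardiomyocyte markers lay between 10.99 and 11.91 on the arrays of E10.5, E18.5, E19.5 and the adult stages. The titles of the E16.5 female array and of all later stages carry a prefix that the earlier titles lack, so that late and early stages differ in it too. The mean of 18 hybridization control probe sets, which read RNA added to every sample, was 9.90 at E10.5, 11.09 at E18.5, 11.16 at E19.5, 12.17 in young adults and 11.37 in old adults. Single arrays lay between 9.68 and 10.35 at E10.5, 10.97 and 11.39 at E19.5, and 12.03 and 12.43 in young adults. Those of old adults lay between 11.16 and 11.56. Where 2 stages do not overlap in this level, a difference with it as a covariate rests on its slope within stages. With 3 arrays a stage, and nothing that says more than 1 litter was sampled, p-values measure the spread between these arrays.

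The stage at which a gene was highest differed between the members. As the map of stage means shows, 8 of 32 members had their highest stage mean at E19.5, 7 in young adults and 10 in old adults. Of the 29 members with a mean level above 5 these were 8, 5 and 10, against 4.36%, 8.92% and 17.9% of the 9538 genes above that level. E19.5 was the top stage of Cpt1a, Slc25a20, Eci2, Etfdh, Acot2, Acacb, Mlycd and Pdk4. The young adult heart had the highest means of Hadhb, Echs1, Acaa2, Eci1, Crat, Acss1 and Ucp3. E10.5 was the lowest stage of 8 members and E13.5 of 6. Above a mean level of 5 these were 7 and 5 members, against 15.7% and 3.22% of genes.

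**Figure D1:**
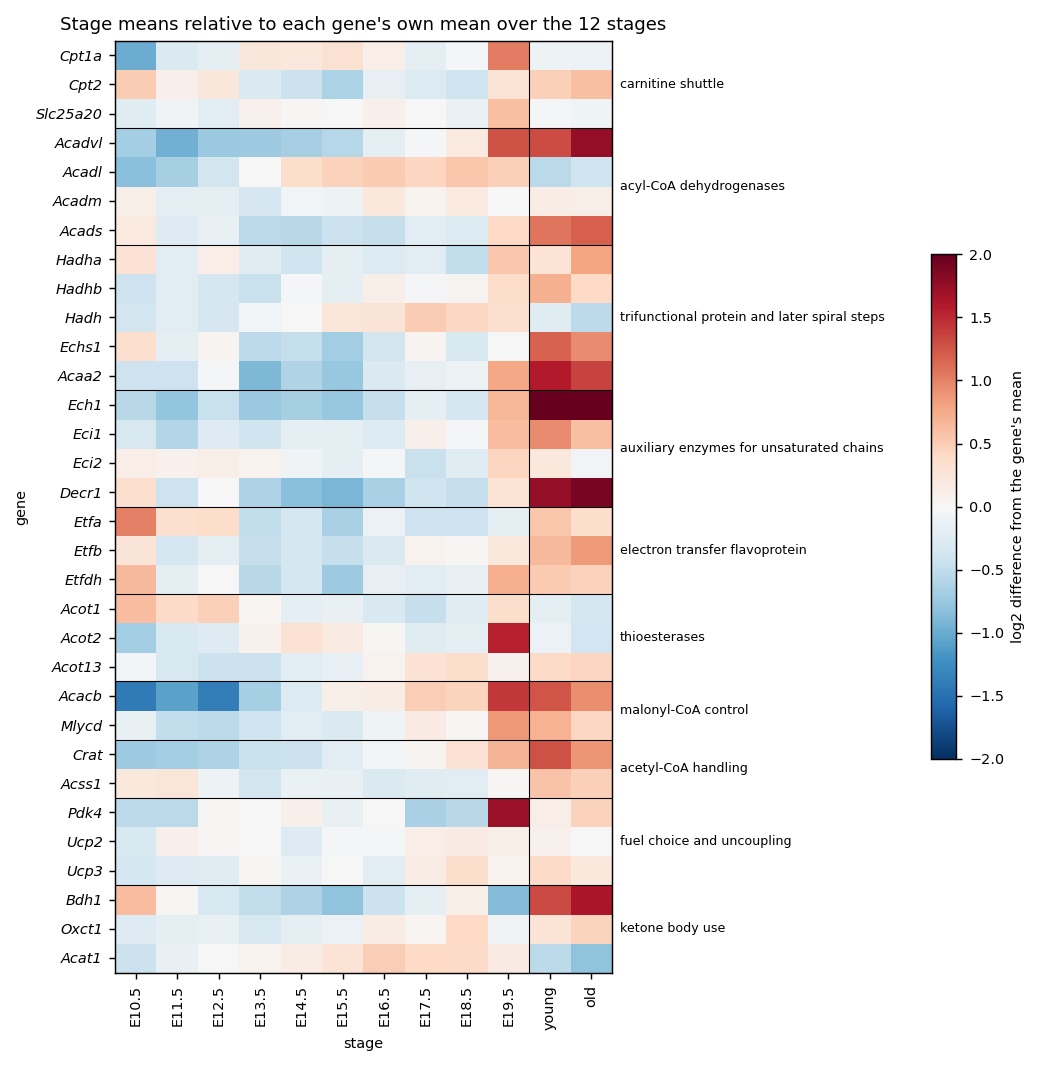
Mean log2 level of each of the 32 measured genes (rows, grouped by role) at 12 stages (columns, 3 arrays each), as the difference from that gene's own mean over the stages. Red is higher and blue lower, with colours capped at a difference of 2, and the vertical line separates fetal from adult stages. Cpt1a, Acot2 and Pdk4 are reddest at E19.5, whereas Ech1 and Decr1 are reddest in both adult stages.

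The last fetal day carried most of the day-to-day calls. From E18.5 to E19.5, 7 members rose (Pdk4, Acot2, Acadvl, Cpt1a, Hadha, Acacb and Mlycd) and Bdh1 fell. Over all genes 0.57% were called higher and 1.15% lower in this step, and among genes with a mean above 5 these shares were 0.849% and 2.14%. The 7 members made up 5.93% of the 118 genes called higher, and 21.9% of the 32 members. The median difference of the members was 0.62, against -0.01 over all genes, and 23 of 32 differences were positive. The step had 19 members with an unadjusted p under 0.05, against 13.1% of all genes. By the stricter limits of the study (adjusted p under 1e-05, a change above 2 and a stage mean above 5) no member was called.

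Pdk4, the kinase that shuts off pyruvate dehydrogenase and so spares glucose, had the largest rise of the members in this step. Its levels on the E18.5 arrays were 6.57, 6.42 and 5.06, and on the E19.5 arrays 8.51, 8.54 and 7.85. The mixed array was the lowest of both stages, and the groups did not overlap. The difference of 2.28 (SE 0.33, n = 3 arrays a stage, adjusted p = 0.000238) is 4.86-fold.

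Acot2, a mitochondrial thioesterase that frees fatty acids from coenzyme A, had levels of 7.93, 8.05 and 7.58 at E18.5 and of 9.37, 9.45 and 9.93 at E19.5. All E19.5 arrays of Acot2 lay above every other array of the series. The difference was 1.73 (SE 0.18, adjusted p = 8.07e-07). Acot1, its cytosolic neighbour of similar sequence, was at 4.24, 4.35 and 4.26 at E18.5 and at 5.09, 5.03 and 4.54 at E19.5, a difference of 0.60 that did not pass (adjusted p = 0.239). Because both genes are so alike, probes may read both transcripts. The other probe set of Acot2, with no stage mean above 3.35, gave 0.32 (adjusted p = 0.58).

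Cpt1a, which forms the carnitine esters at the outer membrane, was at 7.69, 7.65 and 7.60 at E18.5 and at 8.58, 8.67 and 8.84 at E19.5. Its rise of 1.05 (SE 0.13, adjusted p = 1.72e-05) was also called by both of its other probe sets, with 0.95 (adjusted p = 0.00179) and 0.93 (adjusted p = 0.00185). The remaining carnitine genes did not pass. Slc25a20, the carrier of the inner membrane, was at 9.11, 8.997 and 8.42 and then at 9.49, 9.31 and 9.91, a difference of 0.73 with adjusted p = 0.0551. Cpt2, which returns the acyl group to coenzyme A, differed by 0.67 (adjusted p = 0.394).

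Acacb and Mlycd act on malonyl-CoA in opposite directions, and both rose. Acacb, the acetyl-CoA carboxylase that makes it, went from 7.22, 7.21 and 7.62 to 8.15, 8.48 and 8.29, a difference of 0.95 (SE 0.18, adjusted p = 0.00469). Mlycd, the decarboxylase that removes it, went from 5.64, 5.57 and 5.59 to 6.46, 6.70 and 6.18, a difference of 0.85 (SE 0.15, adjusted p = 0.00218).

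Acadvl, the dehydrogenase of very long chains, was at 8.04, 7.69 and 7.79 at E18.5 and at 9.09, 8.86 and 8.80 at E19.5, a difference of 1.08 (SE 0.22, adjusted p = 0.00898). The dehydrogenases for shorter chains were not called in this step: Acadl (long chains) differed by -0.09, Acadm (medium chains) by -0.20 and Acads (short chains) by 0.68, with adjusted p of 0.952, 0.835 and 0.0832. Hadha, the subunit of the trifunctional protein that hydrates and dehydrogenates long chains, was at 6.47, 5.72 and 5.81 and then at 7.10, 7.32 and 6.70. The female E18.5 array stood above the other two of its stage, and the difference of Hadha was 1.03 (SE 0.26, adjusted p = 0.0345). Hadhb, the thiolase subunit of the same complex, differed by 0.32 (SE 0.16, adjusted p = 0.429). The difference between the changes of both subunits was not tested.

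Bdh1, which converts 3-hydroxybutyrate to acetoacetate, moved the other way. It was at 5.19, 5.45 and 5.02 at E18.5 and at 4.37, 4.05 and 4.29 at E19.5, with no overlap. The difference was -0.99 (SE 0.22, adjusted p = 0.0182). Its stage mean of 4.23 at E19.5 was the lowest of all 12, but close to 4.29 at E15.5. From E12.5 to E17.5 its stage means were under 5 as well, and at E18.5 the mean was 5.22. Oxct1, the transferase that activates acetoacetate, differed by -0.48 (adjusted p = 0.477) and Acat1, the thiolase that ends the route, by -0.22 (adjusted p = 0.623).

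**Figure D2:**
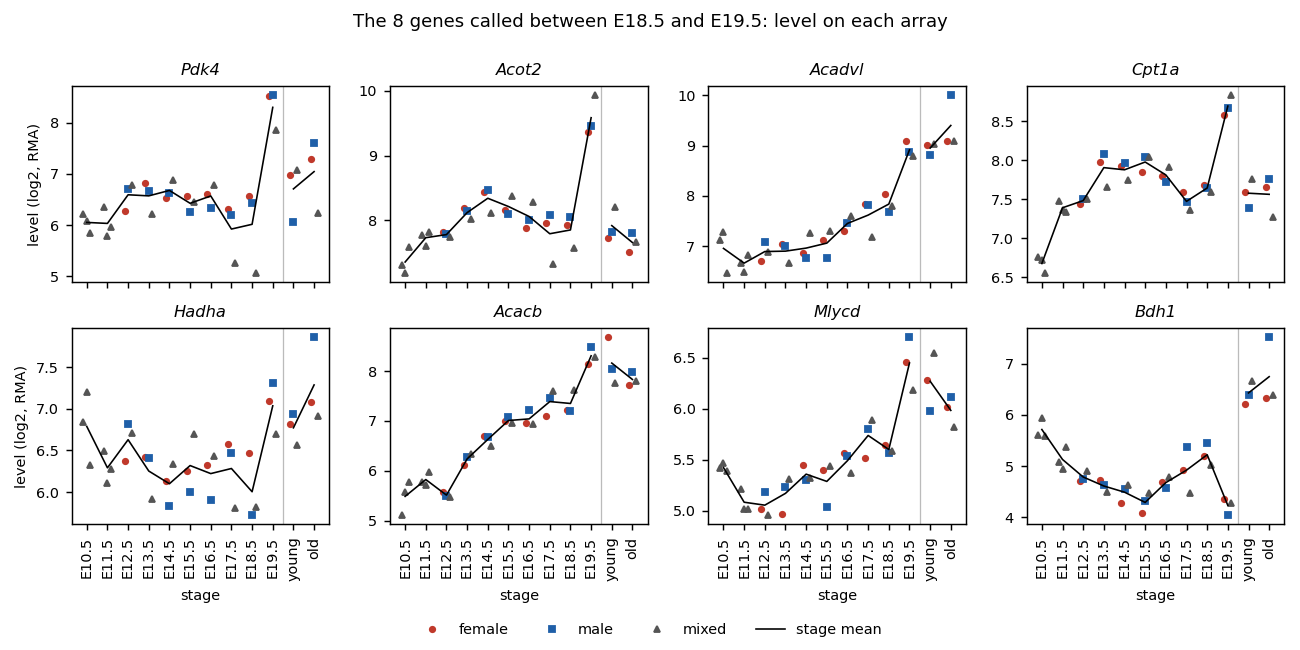
Log2 level on each array (points, by sex label) and stage means (lines) of the 8 genes called between E18.5 and E19.5, over 12 stages. At E19.5 the arrays of Pdk4 lie between 7.85 and 8.54 and those of Acot2 between 9.37 and 9.93, above all their other arrays, while Bdh1 lies between 4.05 and 4.37.

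The calls of this day rested in part on single arrays. Without the E19.5 male array 4 members were called, and without the E18.5 male array 5. Pdk4, Cpt1a, Acot2 and Mlycd passed whichever array was left out, and Hadha failed when any of 4 arrays of these stages was left out. Measured from E17.5, the rise was called for 9 members and no member was lower, with 2.04% of all genes called higher and 2.88% lower. Both comparisons share the E19.5 arrays. With the hybridization control level as a covariate 16 members were called from E18.5 to E19.5, of which 15 were higher, with 1.99% of all genes called higher and 2.29% lower.

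Markers of other cell types are given because whole hearts change in make-up. On the last fetal day none of 8 cardiomyocyte, 5 adipocyte, 6 skeletal muscle, 6 liver, 6 fibroblast, 6 erythroid or 5 leukocyte markers was called. In this step 0.57% of all genes were called higher and 1.15% lower. In 2 lists 1 marker rose: Egfl7 of 6 endothelial markers by 1.03 (adjusted p = 0.0116), and Cidea of 4 brown adipocyte markers by 1.09 (adjusted p = 0.0034). The endothelial list had a median difference of 0.54, with mean levels of 6.24 to 6.63 at E18.5 and 6.46 to 7.23 at E19.5. The brown adipocyte list had mean levels of 3.30 to 3.45 at E18.5 and 3.60 to 3.86 at E19.5, and Ucp1, its defining gene, had no stage mean above 3.05. Their part in the results was not tested.

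RefSeq promoter windows of build GRCm38.p6, from 250 bases before to 50 after the start, were found for 27 of the 33 genes, in 28 entries. They were searched on both strands for AGGTCA, the core motif bound by many nuclear receptors, among them those known to regulate genes of fatty acid oxidation. It occurs in 6 of the 28 member entries and in 16.3% of all 32851 windows. The longer form AAGGTCA occurs in 2 member entries and 4.72% of all windows, and overlaps the shorter form by construction. A direct repeat of AGGTCA with 1 base between occurs in 0.0396% of all windows and in no member's. Of the 7 genes that rose on the last fetal day, 3 hold AGGTCA. A match describes letters in a window and not a bound site. Shown first are those 3 windows, then Acadm, which holds AAGGTCA and was not called in any of the comparisons here, and Pdk4 and Hadha, which rose and hold no AGGTCA. Capitals mark AGGTCA or, on the other strand, TGACCT.
Cpt1a, chr19:3323051-3323350, plus strand: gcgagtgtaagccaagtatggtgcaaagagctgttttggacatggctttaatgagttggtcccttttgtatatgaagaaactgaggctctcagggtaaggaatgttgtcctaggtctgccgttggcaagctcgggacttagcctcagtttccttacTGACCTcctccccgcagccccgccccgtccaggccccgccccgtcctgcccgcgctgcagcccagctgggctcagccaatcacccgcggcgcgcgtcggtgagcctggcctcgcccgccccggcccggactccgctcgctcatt
Acacb, chr5:114165268-114165567, plus strand: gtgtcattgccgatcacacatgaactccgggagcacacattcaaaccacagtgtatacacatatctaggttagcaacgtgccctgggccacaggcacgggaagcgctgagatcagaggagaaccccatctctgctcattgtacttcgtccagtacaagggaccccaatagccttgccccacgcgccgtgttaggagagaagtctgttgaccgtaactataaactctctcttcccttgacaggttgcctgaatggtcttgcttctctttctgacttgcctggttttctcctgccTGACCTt
Acadvl, chr11:70015379-70015678, minus strand: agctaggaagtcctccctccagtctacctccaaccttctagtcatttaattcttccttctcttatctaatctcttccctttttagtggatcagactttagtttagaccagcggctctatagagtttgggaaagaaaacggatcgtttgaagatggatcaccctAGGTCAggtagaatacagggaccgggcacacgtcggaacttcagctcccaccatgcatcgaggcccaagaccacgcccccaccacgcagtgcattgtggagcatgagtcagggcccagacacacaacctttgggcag
Acadm, chr3:153944594-153944893, minus strand: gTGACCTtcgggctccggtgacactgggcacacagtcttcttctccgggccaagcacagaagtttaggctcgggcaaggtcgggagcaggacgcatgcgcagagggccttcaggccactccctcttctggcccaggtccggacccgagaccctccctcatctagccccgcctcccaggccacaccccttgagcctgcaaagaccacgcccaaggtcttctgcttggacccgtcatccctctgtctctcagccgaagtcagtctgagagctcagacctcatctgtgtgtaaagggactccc
Pdk4, chr6:5496229-5496528, minus strand: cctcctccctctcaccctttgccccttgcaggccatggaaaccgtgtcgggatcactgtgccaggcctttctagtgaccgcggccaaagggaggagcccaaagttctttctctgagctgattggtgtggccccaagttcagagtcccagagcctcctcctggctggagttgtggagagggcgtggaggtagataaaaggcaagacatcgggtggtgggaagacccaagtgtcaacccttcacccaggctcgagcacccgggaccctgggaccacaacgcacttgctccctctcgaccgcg
Hadha, chr5:30154931-30155230, minus strand: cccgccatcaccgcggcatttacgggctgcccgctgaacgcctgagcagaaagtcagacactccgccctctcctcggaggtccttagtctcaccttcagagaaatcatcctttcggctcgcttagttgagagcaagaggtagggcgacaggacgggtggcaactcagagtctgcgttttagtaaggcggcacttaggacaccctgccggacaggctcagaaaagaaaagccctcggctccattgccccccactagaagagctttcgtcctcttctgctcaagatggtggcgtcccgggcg

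The motif begins 94 bases before the start in Cpt1a, 87 before it in Acadvl and 249 before it in Acadm, and at base 44 from the start in Acacb. Hadha and Hadhb lie head to head, with start sites 273 bases apart, and 228 bases of the Hadha window are also the Hadhb window on the opposite strand. Both genes thus share most of this sequence, while only the Hadha probe set was called on the last day.

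Over the whole fetal span, from E10.5 to E19.5, 15 members rose and 2 fell. All genes were called higher in 26.2% and lower in 23.6% of cases, and genes with a mean above 5 in 21.6% and 41%. The members' median difference was 0.42, against 0.16 over all genes and -0.26 over genes with a mean above 5. By the limits of the study Acacb, Pdk4, Acot2 and Cpt1a were called higher and no member lower, with 1% of all genes higher and 1.52% lower. With the title prefix as a block 9 members were called, 8 higher and 1 lower, with 6.7% of all genes higher and 10.1% lower. Only E16.5 has arrays with and without the prefix, the female one against the male and the mixed one. The block thus rests on these arrays and cannot be told apart from sex or from that female array.

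Acacb had the largest rise, from 5.12, 5.58 and 5.77 at E10.5 to 8.15, 8.48 and 8.29 at E19.5. The difference was 2.82 (SE 0.18, adjusted p = 9.73e-14), or 7.04-fold. Its stage means climbed through mid-gestation as well, with a called step from E12.5 to E13.5 of 0.72 (SE 0.18, adjusted p = 0.0376), a call that was lost in 8 of 44 alternative settings.

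Cpt1a rose in stages. It was at 6.76, 6.72 and 6.55 at E10.5 and at 7.48, 7.36 and 7.34 at E11.5, a called step of 0.72 (SE 0.13, adjusted p = 0.00216). It lay between 7.73 and 8.05 on the E15.5 and E16.5 arrays and between 7.37 and 7.69 at E17.5 and E18.5, before the rise at E19.5. The difference over the span was 2.02 (SE 0.13, adjusted p = 1.41e-13).

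Pdk4 and Acot2 rose over the span by 2.24 and 2.23, beside 2.28 and 1.73 on the last day, which shares the E19.5 arrays. Pdk4 was at 6.22, 6.09 and 5.85 at E10.5, below all its E19.5 arrays (SE 0.33, adjusted p = 2.25e-06). Acot2 was at 7.30, 7.18 and 7.58 at E10.5, again without overlap (SE 0.18, adjusted p = 1.8e-11).

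Among the enzymes of the spiral, the long-chain dehydrogenases Acadvl and Acadl rose by 1.95 and 1.31 (adjusted p = 1.81e-08 and 0.000113), while Acadm and Acads were not called. On their main probe sets, Hadhb, Hadh and Acaa2 rose by 0.78, 0.69 and 1.18 (adjusted p = 0.000171, 0.000198 and 0.00666). Hadh makes the second dehydrogenation of shorter chains, and Acaa2 the thiolysis. Echs1, the hydratase of short chains, was not called at -0.36 (adjusted p = 0.19), and neither was Hadha at 0.25 (adjusted p = 0.429). Hadha was at 6.84, 7.20 and 6.33 at E10.5, so that its rise on the last day ended near its first level.

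Of the auxiliary enzymes, which move double bonds of unsaturated chains, Ech1 rose by 1.22 and Eci1 by 0.94 (adjusted p = 0.0015 and 0.000846), and Eci2 and Decr1 were not called at 0.29 and -0.06. Crat, which buffers acetyl-CoA as acetylcarnitine, rose by 1.42 (adjusted p = 1.02e-08). Acot13, a small thioesterase of mitochondria, was not called here or in any other comparison, with stage means that spanned 0.87, and Acadm spanned 0.54. Mlycd rose by 1.02 and Slc25a20 by 0.84 (adjusted p = 1.44e-06 and 0.000815).

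The electron transfer flavoprotein passes electrons of the dehydrogenases to the respiratory chain, and its alpha subunit was 1 of the 2 genes that fell. Etfa was at 9.06, 9.29 and 8.30 at E10.5 and at 7.92, 7.75 and 7.37 at E19.5, a difference of -1.20 (SE 0.32, adjusted p = 0.00325). With the hybridization control level as a covariate it was 0.20 (adjusted p = 0.685). The arrays of E10.5 and E19.5 did not overlap in control level, so this value rests on the slope within stages. Etfb, the beta subunit, and Etfdh, which hands the electrons on, differed by -0.05 and 0.07 and were not called. Bdh1 was the other: 5.61, 5.95 and 5.59 at E10.5 against 4.37, 4.05 and 4.29, a difference of -1.48 (SE 0.22, adjusted p = 2.72e-06).

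The early part of the span had calls in both directions. From E10.5 to E15.5, 7 members rose and 8 fell, near the shares of all genes (20.3% higher and 20.5% lower). Cpt1a, Acacb, Acadl, Acot2, Acat1, Hadh and Crat rose, and Cpt2, Acads, Echs1, Decr1, Etfa, Etfdh, Acot1 and Bdh1 fell, the lowest being Etfa at -1.66 (adjusted p = 0.000147). Neither stage carries the title prefix. Of the 9 daily steps, the one to E11.5 had 1 call (Cpt1a) with 2.67% of all genes called in either direction, that to E13.5 had 1 (Acacb) with 1.26%, and those to E12.5 and to E14.5 through E18.5 had none. In those other steps, taken in order, 0.126%, 0.0628%, 0.0483%, 0.00483%, 0.0193% and 0% of all genes were called. At an unadjusted p under 0.05, these steps had 0, 2, 1, 0, 1 and 0 members, against 3.73%, 3.61%, 4.89%, 2.91%, 10.3% and 5.41% of all genes. By the same measure the step to E11.5 had 10 members (16.3% of all genes) and that to E13.5 had 7 (15.6%).

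From E19.5 to the young adult, 6 members rose and 7 fell. All genes were called higher in 14.7% and lower in 17% of cases, and genes with a mean above 5 in 14.5% and 32%. The members' median was 0.18, against 0.05 over all genes. The split between both directions depended on the scaling. With each array centred on the probe sets above 5 it was 11 higher and 5 lower (all genes 23.3% and 12%). With the hybridization control level as a covariate it was 17 higher and 6 lower (16.6% and 16.7%). The arrays of E19.5 and of young adults did not overlap in control level. By the limits of the study, Bdh1 alone was called, with 0.787% of all genes higher and 1.02% lower.

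Bdh1 had the largest rise, from 4.37, 4.05 and 4.29 to 6.22, 6.40 and 6.67. The difference was 2.19 (SE 0.22, adjusted p = 3.05e-09), or 4.58-fold. Against E18.5 the young adult level was higher by 1.21 (adjusted p = 5.47e-05), so that the size depends on the fetal day taken as reference.

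The other members that rose were Decr1, Ech1, Echs1, Acads and Crat. Decr1, the dienoyl-CoA reductase, went from 6.54, 6.596 and 5.83 to 8.0005, 7.69 and 7.72, a difference of 1.48 (SE 0.26, adjusted p = 4.42e-05). Ech1, the dienoyl-CoA isomerase, went from 8.99, 8.97 and 8.92 to 10.50, 10.20 and 10.45, a difference of 1.42 (SE 0.30, adjusted p = 0.000447). Neither gene's groups overlapped. Echs1 rose by 1.20, Acads by 0.66 and Crat by 0.58 (adjusted p = 0.000105, 0.0102 and 0.00394).

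Of the 7 genes that rose on the last fetal day, Acot2, Pdk4 and Cpt1a were lower in the young adult. Acot2 was at 7.73, 7.82 and 8.21 in young adults, a difference of -1.67 (SE 0.18, adjusted p = 8.51e-09). Pdk4 was at 6.98, 6.06 and 7.08, a difference of -1.59 (SE 0.33, adjusted p = 0.000373). Cpt1a was at 7.60, 7.39 and 7.75, a difference of -1.12 (SE 0.13, adjusted p = 4.68e-08). Its further probe sets, with stage means up to 7.03 and 4.45, differed by -0.33 (adjusted p = 0.127) and -0.61 (adjusted p = 0.00365). The size of the Cpt1a fall thus depended on the probe set. These differences share the E19.5 arrays with the rise before birth, so the rise and the fall are not independent. On the main probe sets, young adult Acot2 differed from E18.5 by 0.07 (adjusted p = 0.815) and Cpt1a by -0.07 (adjusted p = 0.743). The 95% intervals were -0.29 to 0.43 and -0.33 to 0.20. Pdk4 differed from E18.5 by 0.69 (95% interval 0.02 to 1.37, adjusted p = 0.111).

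**Figure D3:**
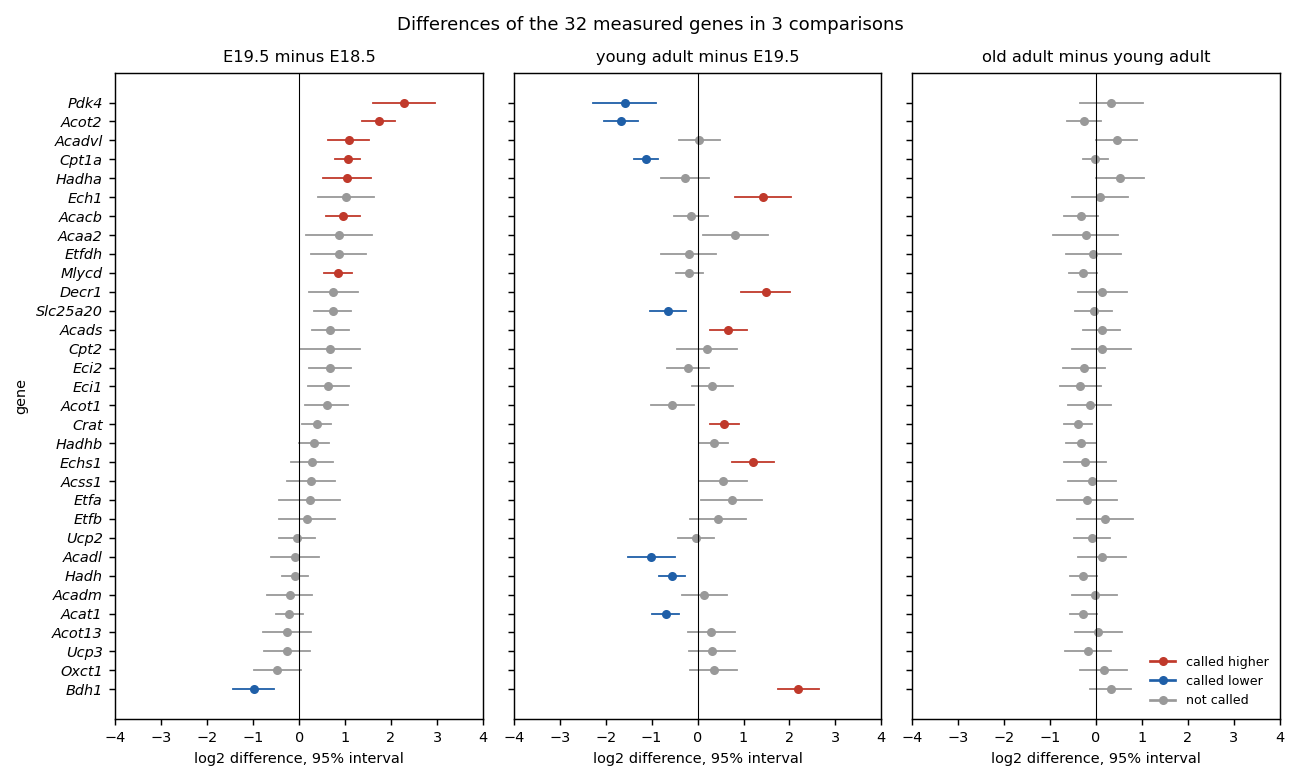
Log2 difference of each of the 32 genes (rows, ordered by the last fetal day) with its 95% interval from limma in 3 comparisons. Red genes were called higher and blue genes lower: 7 and 1 from E18.5 to E19.5, 6 and 7 from E19.5 to young adult, and none from young to old adult.

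In the comparison of young adults with E18.5, which uses no E19.5 array and was added after the data had been seen, 16 members rose and 3 fell, with 17.2% of all genes higher and 19.4% lower. Ech1 and Decr1 had the largest differences, 2.44 and 2.22 (adjusted p = 8.47e-08 and 3.48e-08). Acadvl, Acacb, Hadha and Mlycd, which had risen on the last fetal day, were higher in the young adult than at E18.5 by 1.11, 0.81, 0.77 and 0.67. Their differences from E19.5 were 0.03, -0.15, -0.27 and -0.18 and were not called. On their main probe sets, Acadl, Acat1 and Hadh were lower than at both fetal days.

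Acadl and Hadh, both dehydrogenases of the spiral, fell towards the adult. Acadl went from 10.79, 10.52 and 10.62 at E19.5 to 9.44, 9.50 and 9.97, a difference of -1.004 (SE 0.26, adjusted p = 0.00294). Hadh went from 11.85, 11.86 and 12.24 to 11.29, 11.35 and 11.63, a difference of -0.56 (SE 0.14, adjusted p = 0.00247). Slc25a20 fell by 0.64 (adjusted p = 0.0121). Of the acyl-CoA dehydrogenases, Acadl thus fell and Acads rose, while Acadm had a difference of 0.15 (SE 0.24, adjusted p = 0.695).

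**Figure D4:**
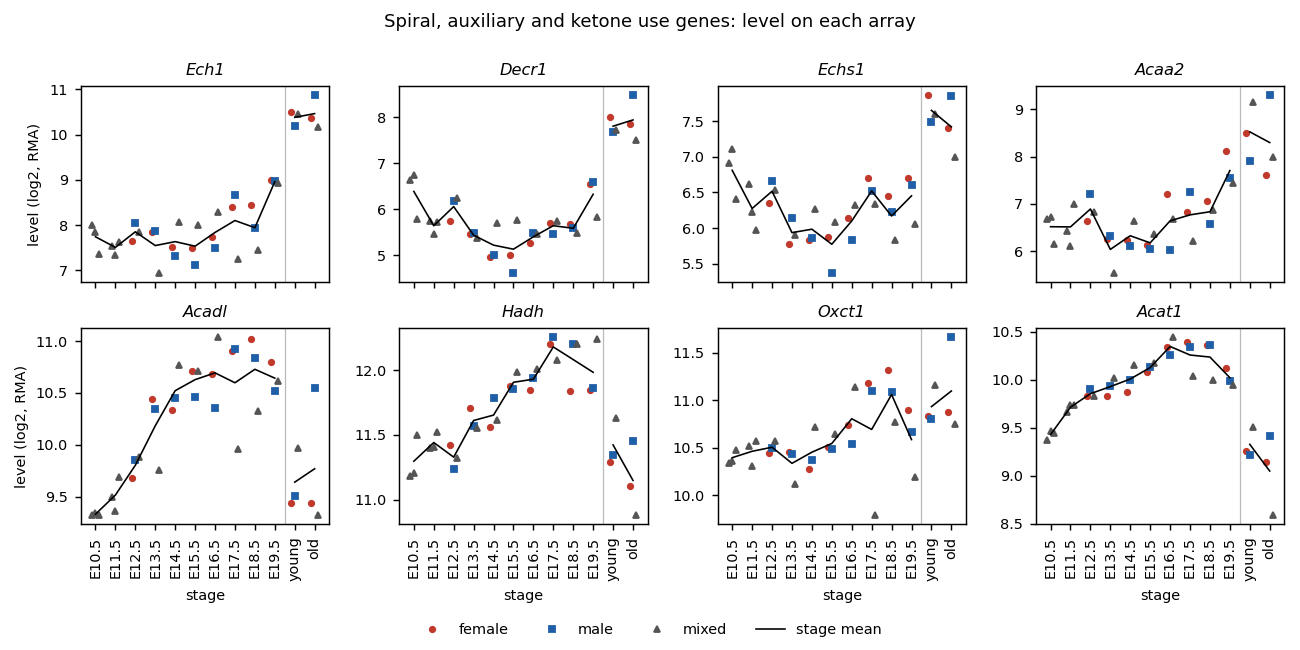
Log2 level on each array (points, by sex label) and stage means (lines) of 8 genes of the oxidation spiral, the auxiliary enzymes and ketone body use. Ech1 lies between 10.20 and 10.50 in young adults against 8.92 to 8.99 at E19.5, whereas Acadl lies between 9.44 and 9.97 against 10.52 to 10.79.

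The ketone genes are described next. Bdh1 was high at E10.5, fell to E15.5, and was highest in the adult. Acat1, which also serves the breakdown of isoleucine, rose on its main probe set by 0.59 over the fetal span (adjusted p = 0.00148). It went from 9.37, 9.47 and 9.44 to 10.13, 9.99 and 9.95. In the young adult it fell to 9.26, 9.22 and 9.50, a difference of -0.69 (SE 0.15, adjusted p = 0.000412). Further Acat1 probe sets, of mean level 8.47 and 7.04, differed by 0.00 and 0.17 to the adult (adjusted p = 0.996 and 0.622). Over the fetal span they gave -0.44 and 1.02 (adjusted p = 0.226 and 0.000532). From E10.5 to the young adult they gave -0.43 and 1.19 (adjusted p = 0.2 and 4.5e-05), against -0.10 on the main one. Oxct1 was at 10.34, 10.36 and 10.48 at E10.5, at 10.90, 10.67 and 10.19 at E19.5 and at 10.83, 10.80 and 11.16 in young adults, and no comparison of its main probe set passed. A second Oxct1 probe set of almost the same mean level rose by 0.91 over the fetal span (adjusted p = 0.0032) and by 0.72 to the adult (adjusted p = 0.0232). Another, of mean level 8.38, rose by 0.815 and 0.598 (adjusted p = 0.00157 and 0.0242). The last, of mean level 8.78, was not called at -0.41 and 0.45 (adjusted p = 0.401 and 0.44). From E10.5 to the young adult these further probe sets gave 1.63, 1.41 and 0.04 (adjusted p = 1.11e-06, 5.46e-07 and 0.938). The gene's course thus depends on the probe set.

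Ucp2 and Ucp3, carriers of the inner membrane, had 1 call on their main probe sets. Ucp2 lay between 6.32 and 7.32 on all arrays of E10.5, E18.5, E19.5 and both adult stages, and none of the comparisons of this probe set passed. A further Ucp2 probe set rose by 0.70 from E10.5 to E19.5 (adjusted p = 0.00565), and was higher by 0.62 in the young adult than at E10.5 (adjusted p = 0.00893). Ucp3 was low: 3.30, 3.27 and 3.46 at E10.5, 3.44, 4.35 and 3.50 at E19.5, and 3.60, 4.27 and 4.35 in young adults. Its difference from E10.5 to young adult was 0.73 (SE 0.24, adjusted p = 0.0114), and no stage mean was above 5. The other Ucp3 probe set, with no stage mean above 4.53, rose by 0.97 from E10.5 to E19.5 (adjusted p = 0.000832). From E10.5 to the young adult it was higher by 1.39 (adjusted p = 4.24e-06).

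From E10.5 to the young adult, 15 members rose and Acot1 fell, with 38.6% of all genes called higher and 28.5% lower. By the limits of the study 3 members rose, Acacb, Ech1 and Crat, and none fell, with 2.64% of all genes higher and 5.14% lower. Acacb was higher by 2.67, Ech1 by 2.64, and Acaa2 and Crat by 2.00 each (adjusted p = 6.63e-14, 8.06e-09, 1.28e-05 and 1.56e-12). The probe sets of next highest mean gave 0.57 for Acaa2 (adjusted p = 0.0568) and 0.56 for Crat (adjusted p = 0.0454). Acot1 fell by 0.81 (adjusted p = 0.00334), although its E10.5 arrays at 5.34, 5.63 and 4.45 and its adult arrays at 4.49, 4.16 and 4.34 overlapped. With arrays centred on probe sets above 5, a scaling that moves the median of all genes in this comparison from 0.21 to 0.74, 28 members were higher and none lower, with 63.6% of all genes higher and 18% lower. With the title prefix as a block, which rests on the E16.5 arrays alone, 9 were higher and none lower, with 16.8% and 18.7% of all genes.

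Between young and old adults no member was called, with 4.46% of all genes called higher and 3.13% lower, and 7.32% and 3.16% of genes with a mean above 5. In limma 3 members had an unadjusted p under 0.05, against 24.4% of all genes, and differences lay between -0.39 (Crat) and 0.52 (Hadha). Crat was at 9.01, 8.94 and 9.06 in young and at 8.50, 8.76 and 8.58 in old adults, a difference of -0.39 (95% interval -0.71 to -0.08, adjusted p = 0.113). Hadha differed by 0.52 (95% interval -0.01 to 1.04, adjusted p = 0.222). Quantile normalization of the deposited values gave 2 lower members, with 4.1% of all genes lower, and the hybridization control level as a covariate 7, with 2.93%. Young and old adult arrays did not overlap in that control level.

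The old adult male array stood above its group for many members, as the plot of median deviations by array shows. The median deviation of the 32 genes from their own means was 0.96 on this array, against 0.43 for the old adult female, and 11 of 32 members had their highest value of all 36 arrays on it. Acadvl was at 9.10, 10.00 and 9.09 in old adults, Bdh1 at 6.33, 7.52 and 6.39, and Hadha at 7.08, 7.87 and 6.92. The old adult male array had a hybridization control mean of 11.16, against 11.38 on the female and 11.56 on the mixed array. Its median over all probe sets was 4.05, against 4.10 and 4.12. Both were the lowest of its stage, and their part in the members' levels was not tested. Leaving this array out still gave 0 calls between young and old adults.

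**Figure D5:**
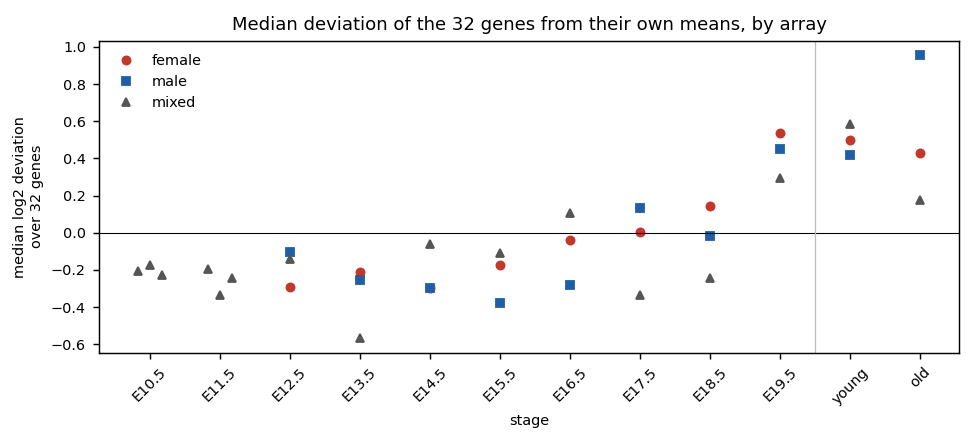
Median over the 32 genes of the log2 deviation from each gene's own mean (vertical axis) for each of the 36 arrays, by stage (horizontal axis) and sex label. The old adult male array is at 0.96, the young adult arrays lie between 0.42 and 0.59, and the E19.5 arrays between 0.30 and 0.54.

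The sex comparison took 9 pairs of male and female arrays, with stage as a block, and left out E12.5 as the methods do. No member was called in limma, with 0.0242% of all genes higher and 0.0193% lower in males. At an unadjusted p under 0.05 there were 3 members, Etfa (-0.21), Acot1 (-0.20) and Ucp3 (0.27), or 9.38% of members against 7.89% of all genes.

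Lists of neighbouring pathways are set here beside the shares of all genes. Of all genes, 26.2% were called higher and 23.6% lower over the fetal span, and 14.7% and 17% to the adult. On the last fetal day these shares were 0.57% and 1.15%, and between young and old adults 4.46% and 3.13%. Of 14 peroxisomal genes of fatty acid oxidation, 3 rose and 2 fell over the fetal span and 4 rose to the adult. Their lowest called difference was Crot, which makes carnitine esters in peroxisomes, at -1.16 over the fetal span (adjusted p = 0.00627). Of 7 other acyl-CoA dehydrogenases, 1 rose and 2 fell over the fetal span, with Gcdh, of lysine breakdown, at -1.22, and 3 rose and 1 fell to the adult, with Acad11 at 1.97 (adjusted p = 5.65e-05). Slc22a5, the carnitine importer of the cell membrane, rose on the last fetal day by 0.78 (adjusted p = 0.0129) and Acot11 fell by 0.81 (adjusted p = 0.0281), the only called genes of 7 in their list.

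Of 7 genes of fatty acid synthesis, 5 fell and none rose from E10.5 to E19.5, with Elovl6, an elongase, lowest at -2.84 (adjusted p = 2.19e-10). To the adult, 2 rose and 1 fell, with Scd1, a desaturase, at 4.53 (adjusted p = 1.93e-13) and Scd2 at -1.41 (adjusted p = 0.00513). Of 10 genes of the pyruvate dehydrogenase complex and its regulators beside Pdk4, Pdk2 rose over the fetal span by 1.58 (adjusted p = 7.99e-07), and Pdk3 and Dld fell by 1.81 and 1.64 (adjusted p = 2.22e-07 and 0.00764). Pdk1 fell to the adult by 1.64 (adjusted p = 2.83e-06). In the tricarboxylic acid cycle, 3 of 16 genes rose and 3 fell over the fetal span (Idh3g by 0.94 and Idh3a by -1.21 at the ends), and 1 rose and 4 fell to the adult. Of 5 genes of ketone synthesis and transport, Slc16a1, a carrier of lactate and ketones, fell over the fetal span by 1.40 (adjusted p = 0.00264). None of these 7 lists, apart from Slc22a5 and Acot11, had a call on the last fetal day, and none had a call between young and old adults.

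Over the fetal span, 5 of 6 erythroid markers fell, and their mean level went from between 8.88 and 9.63 at E10.5 to between 3.98 and 4.27 at E19.5. In the same span 5 of 8 cardiomyocyte markers rose, from 10.99 to 11.21 up to 11.49 to 11.79. Of 6 fibroblast markers 4 rose and 1 fell (7.11 to 7.39 up to 8.73 to 9.11), with the matrix genes Dcn and Col1a1 higher by 3.47 and 3.17. Of 5 leukocyte markers 3 rose (3.81 to 4.05 up to 5.05 to 5.20), with Csf1r, a receptor of macrophages, higher by 3.02. Of 6 endothelial markers 3 rose and 1 fell (6.04 to 6.53, then 6.46 to 7.23), and 3 of 4 brown adipocyte markers rose (2.80 to 2.83 up to 3.60 to 3.86). From E19.5 to the young adult, 4 of 5 adipocyte markers rose (2.92 to 3.20 up to 4.10 to 5.70) with Adipoq, the fat cell's adiponectin, higher by 2.75, and all 5 leukocyte markers rose (5.05 to 5.20 up to 6.80 to 7.14), while 3 of 8 cardiomyocyte markers fell. In that comparison 2 fibroblast markers rose (Lum by 3.39 and Dcn by 1.98) and 3 fell, with Col1a1 at -3.33, and the list's mean level was 8.74 to 9.42 in young adults. Of the endothelial markers 2 rose, to a mean level of 7.21 to 7.51. From young to old adult, 2 endothelial markers, 1 cardiomyocyte marker and 1 leukocyte marker (Ptprc, by 2.004) were higher, beside Serpina1b of the liver list, and 1 fibroblast marker (Col1a1, at -1.53) and 1 skeletal muscle marker were lower. Of all genes, 26.2% were called higher and 23.6% lower over the fetal span, and 14.7% and 17% to the young adult. From young to old adult these shares were 4.46% and 3.13%. The part of these lists in the results was not tested.

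Other probe sets of a gene did not always follow the one with the highest mean. Of 32 members 18 had several, with 28 further probe sets, 17 of which had a stage mean above 5. No further probe set was called in the direction opposite to a called main one. For Hadhb, further probe sets differed by -0.52 (adjusted p = 0.181) and 2.19 (adjusted p = 1.71e-11) over the fetal span, against 0.78 for the main one, and the latter of these fell by 1.32 to the adult (adjusted p = 4.2e-07). For Hadh a probe set with stage means up to 8.84 differed by -0.61 (adjusted p = 0.0847), against 0.69. For Slc25a20 the second gave -0.27 over the fetal span and 0.35 to the adult, against 0.84 and -0.64. For Acaa2 a probe set with stage means up to 7.11 gave 0.29 over the fetal span (adjusted p = 0.355), against 1.18. Another of Acaa2, with stage means up to 4.70, gave -0.09 (adjusted p = 0.813). To the adult, Decr1 differed by 0.08 (adjusted p = 0.839) and Crat by -0.21 (adjusted p = 0.569) on their next probe sets, and Acat1 by 0.00 (adjusted p = 0.996). The further probe sets of Acacb, Acot2 and Bdh1, with stage means up to 3.59, 3.35 and 3.26, were not called on the last fetal day. Acss1, an acetyl-CoA synthetase whose main probe set has no stage mean above 5 and was not called between these stages, had another that rose by 1.62 from E19.5 to the young adult (adjusted p = 8.72e-05) and by 1.55 from young to old adult (adjusted p = 0.00173).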

How the data were processed

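Heart RNA was hybridised to 36 Affymetrix Mouse430 2.0 arrays. The authors deposited log2 values after RMA, 1 column an array and 45101 probe sets, and their methods name R and Bioconductor. The submitters' processing notes name Affymetrix Expression Console, Partek 6.6 and RMA. The values were used as deposited.

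Groups came from the labels. A limma 3.58.1 model in R 4.3.3 with 12 stage means was fitted to all arrays, with empirical Bayes variances and Benjamini-Hochberg adjustment over all probe sets in each comparison. The sex comparison used 18 arrays with stage as a block. Each gene was read from its probe set of highest mean, with no filter on low values. The 6937 probe sets without a gene ID stayed in the fit and out of gene counts. By rule all members could be named, with per-array values for the called genes of highest and lowest difference and the ketone, Ucp and Acot genes, and list genes where they had the highest or lowest called difference. Per-array values of other members and Dld were added after values were seen. Some genes of the pathway lists are not reported here. The script was tested on simulated data. The members, lists and tests were chosen with earlier results of these data known. Alternatives covered scaling, filter, variance trend, probe set, control level, title prefix, replicate block and each array left out. The number of arrays limits the precision.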

Additional observations from a re-analysis of the deposited data

Results flagged for a closer look

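In 8 genes 1 of the 9 male minus female differences lay apart from the others by Dixon's criterion, which flags about 1 in 20 such groups by chance.

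The old adult pair stood apart in 6 genes. The male minus female difference in log2 level was 0.85 for Slc25a20 (next highest pair 0.10), 0.90 for Acadvl (0.17), 1.11 for Acadl (0.12), 0.89 for Acads (0.09) and 0.79 for Oxct1 (0.10). For Acss1 it was -1.38, with -0.37 as the next lowest. Each pair is 1 female and 1 male array, and the old adult male array is the one with a median deviation of 0.96 over all 32 genes. This array also had the lowest hybridization control mean of its stage, so sex and array cannot be told apart here.

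The young adult pair stood apart in 2 genes, at -0.65 for Acacb (next lowest pair -0.01) and -0.92 for Pdk4 (-0.31).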

How the results depend on the processing

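Of 447 alternative values of single genes, 395 kept direction and call, 40 kept direction only and 12 reversed. The 14 members with 1 probe set kept their main value under the probe set alternative, so these values could not differ. Of 2016 values with 1 array left out, 1995 kept both, 21 lost the call and 0 reversed. An array outside the stages of a comparison cannot change its difference, only the shared spread. Most of the 2016 values were of this kind, so their direction was fixed in advance. Member calls were 17 from E10.5 to E19.5, 13 from E19.5 to young adult, 0 between adults, 16 between E10.5 and young adult, 8 from E18.5 to E19.5 and 10 over the daily steps. Quantile normalization gave 2 between adults and 13 on the last fetal day. Of all genes it called 3.74% higher and 4.1% lower between adults, and 1.21% and 1.46% on the last fetal day. Centred arrays gave 1 between adults and 28 between E10.5 and young adult. The limits of the study gave 4, 1, 0 and 3 in the first 4 comparisons, and 0 on the last fetal day and over the daily steps. The hybridization control level as a covariate gave 23 from E19.5 to young adult and 7 between adults. From E10.5 to young adult it gave 26, on the last fetal day 16 and over the daily steps 17. Etfa turned to 0.20 (E10.5 to E19.5) and Ucp3 to -0.36 (E10.5 to young adult). Of all genes, 16.6% were higher and 16.7% lower from E19.5 to young adult, and 2.68% and 2.93% between adults. From E10.5 to young adult these shares were 13.8% and 13.8%, and on the last fetal day 1.99% and 2.29%. Apart from the last fetal day, the stages of these comparisons did not overlap in control level. The title prefix as a block gave 9 for the fetal span (6.7% of all genes higher and 10.1% lower). Between the start of the span and the young adult it gave 9 (16.8% and 18.7%). E19.5 against E17.5, within 1 prefix, gave 9 (2.04% and 2.88%). The prefix differs within a stage only at E16.5, so the block rests on the arrays of that stage. E18.5 in place of E19.5, chosen after seeing the data, gave 19 to the young adult, with 17.2% of all genes higher and 19.4% lower.

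The second highest probe set gave 6 from E19.5 to young adult, 1 between adults, 5 on the last fetal day and 6 over the daily steps. It reversed Slc25a20 (-0.27), Hadhb (-0.52), Hadh (-0.61) and Acat1 (-0.44) from E10.5 to E19.5, Slc25a20 (0.35), Hadh (0.33), Acot2 (0.0241), Crat (-0.21) and Acat1 (0.0029) to the young adult, and Bdh1 (0.0197) on the last fetal day. The cause was not tested. With 1 array left out, counts ranged from 17 to 19, 12 to 14, 0 to 1, 14 to 17, 4 to 10 and 6 to 14 in the order above. The lowest last-day count was without the E19.5 male array, and the 1 call between adults came without the E17.5 mixed array.

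Sex labels did not consistently pair arrays (135 correlations of deviations from -0.63 to 0.63, median 0.048, 60 above 0.1). For replicate numbers at E10.5 and E11.5 there were 3 correlations (-0.31 to 0.28, median 0.187, 2 above 0.1). These are too few to decide on a pairing. With the sex label as replicate block the counts were 18, 13, 0, 17, 8 and 10, and the replicate number block over the 6 arrays of E10.5 and E11.5 gave 0 calls in place of 1.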
